A study of Mus musculus with 4 samples.

Results

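A set of 10 transcription factors that pattern the heart was followed in cardiac cells other than cardiomyocytes. They were taken by gene symbol, and all 10 were found among the 32286 features counted: the GATA zinc finger factors Gata4, Gata5 and Gata6, the T-box factors Tbx20, Tbx5 and Tbx18, the basic helix-loop-helix (bHLH) factors Hand2 and Tcf21, the zinc finger factor Wt1 and the MADS-box factor Mef2c. The series holds 4 heart samples of mice of the strain Ccr2creERT2-Ai14, of which 2 are labelled control and 2 stroke, each taken 1 month after stroke or control conditions. All 4 share the inducible Cre at Ccr2, a monocyte gene, and the Ai14 tdTomato reporter. The hearts were digested for 30 minutes and strained to remove cardiomyocytes, and live nucleated cells were sorted before droplet single-cell RNA sequencing. The sources used here give neither the age of the mice nor the way the stroke was made.

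In the embryo, GATA, T-box, HAND and MEF2 proteins bind the control regions of cardiac genes together, and Gata4, Mef2c and Tbx5 form the classical set used to turn fibroblasts toward a cardiomyocyte-like state. Wt1, Tbx18 and Tcf21 are known from the epicardium, the outer cell sheet of the heart, and from the fibroblasts and mural cells that descend from it. Hand2, Gata4, Gata5 and Tbx20 are known from the endocardium, the inner lining, and from the valves that grow out of it.

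The RefSeq promoter table (GRCm38.p6) held 6 of the 10 genes: Gata5, Tbx20, Hand2, Tbx18, Tcf21 and Mef2c. The 250 bases before the start of 3 of them are shown, because these genes led in 3 different cell classes: Hand2 in endocardial-like cells, Tcf21 in fibroblast-like cells and Tbx20 in pericyte-like cells. Hand2 lies on the plus strand at chr8:57320733-57320982, Tcf21 on the minus strand at chr10:22820144-22820393 and Tbx20 on the minus strand at chr9:24774304-24774553. Each is written 5′ to 3′ on the gene's strand. Capitals mark the GATA motif AGATAA or TGATAA, the bHLH motif CANNTG (E-box) and the T-box motif AGGTGT, each searched on both strands.
Hand2: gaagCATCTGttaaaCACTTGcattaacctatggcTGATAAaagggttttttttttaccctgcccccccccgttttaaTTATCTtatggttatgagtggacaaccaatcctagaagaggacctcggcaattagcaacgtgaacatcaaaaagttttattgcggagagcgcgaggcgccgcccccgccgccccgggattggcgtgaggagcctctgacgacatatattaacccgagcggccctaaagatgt
Tcf21: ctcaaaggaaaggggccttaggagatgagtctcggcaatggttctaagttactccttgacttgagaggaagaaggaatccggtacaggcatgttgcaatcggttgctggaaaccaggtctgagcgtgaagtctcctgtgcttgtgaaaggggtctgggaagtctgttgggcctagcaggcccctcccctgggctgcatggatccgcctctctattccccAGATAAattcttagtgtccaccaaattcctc
Tbx20: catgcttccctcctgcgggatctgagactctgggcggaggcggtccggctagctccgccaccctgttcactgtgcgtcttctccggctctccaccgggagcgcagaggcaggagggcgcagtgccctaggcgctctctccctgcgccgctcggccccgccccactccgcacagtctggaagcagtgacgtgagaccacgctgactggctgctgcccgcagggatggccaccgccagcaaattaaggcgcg
The Hand2 window held 2 matches to the GATA motif, 215 and 172 bases before the start, 2 E-boxes and 2 GC boxes (GGGCGG). The Tcf21 window held 1 GATA match, 31 bases before the RefSeq start at 22820143. GENCODE M21 starts Tcf21 at 22820174, so by that annotation the match lies within the gene. The Tbx20 window held none of the 3 marked motifs and 2 GC boxes. Over 32851 promoters the GATA motif was present in 16.6%, the E-box in 66.2%, the T-box motif in 11.8% and the GC box in 32.7% of windows of the same 250 bases before the start. These matches describe letters only.

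The 39731 cell barcodes carry a library number from 1 to 4, and nothing in the labels or files ties a number to a sample. Stroke was therefore not compared with control, no test between groups was run, and each library's value is given in place of a replicate error. The libraries held 31955157 to 45834980 unique molecular identifiers (UMIs, counted molecules), and 161 of 39570 barcode sequences (0.407%) occurred in more than 1 library. After filtering, 37594 cells were left, with medians of 2583 to 3487 UMIs. They were clustered without 92 listed factors, the 10 included, so a factor's level played no role in the class it is described in. In all, 20 classes of at least 50 cells took names from marker genes and hold 34400 cells. Another 2598 cells (6.91%) lay in unnamed clusters and 568 (1.51%) in clusters with markers of 2 classes. The libraries differed in make-up. Library 3 gave 613 fibroblast-like cells against 1931 to 3159 in the others and 630 of the 1072 macrophage-like cells, library 2 gave 929 of the 1535 B cell-like cells, and library 1 gave 66 of the 108 smooth muscle-like cells. Only 28 cells were cardiomyocyte-like, too few to describe. Clusters of 98 and 67 cells with both cardiomyocyte and capillary markers were among those with markers of 2 classes.

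Levels are given as CPM, the UMIs of a gene per 1000000 UMIs of all cells of a class, with an exact Poisson 95% interval. Ratios carry an exact conditional binomial 95% interval, and both cover counting error only. Of the 10 factors, 7 were highest in a class grouped here as mesenchymal (fibroblast-, pericyte-, smooth muscle- or epicardial-like) and 3 in endocardial-like cells. The epicardial-like class, from the outer cell sheet, was placed in that group by choice. How many of all genes are highest in these classes was not counted, so the 7 describe the factors only. Epicardial-like cells alone led for 4: Gata5, Gata6, Wt1 and Tbx18. For 7 factors the leading class stood above the next beyond counting error, the exceptions being Gata4, Tbx5 and Mef2c. For 7 the same class led in all 4 libraries, among classes with at least 20 cells in the library, the exceptions being Gata6, Tbx5 and Mef2c. In the immune classes the factors other than Mef2c were near 0: apart from the Gata6 of 1 macrophage cluster, no value there passed 10 CPM.

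**Figure D1:**
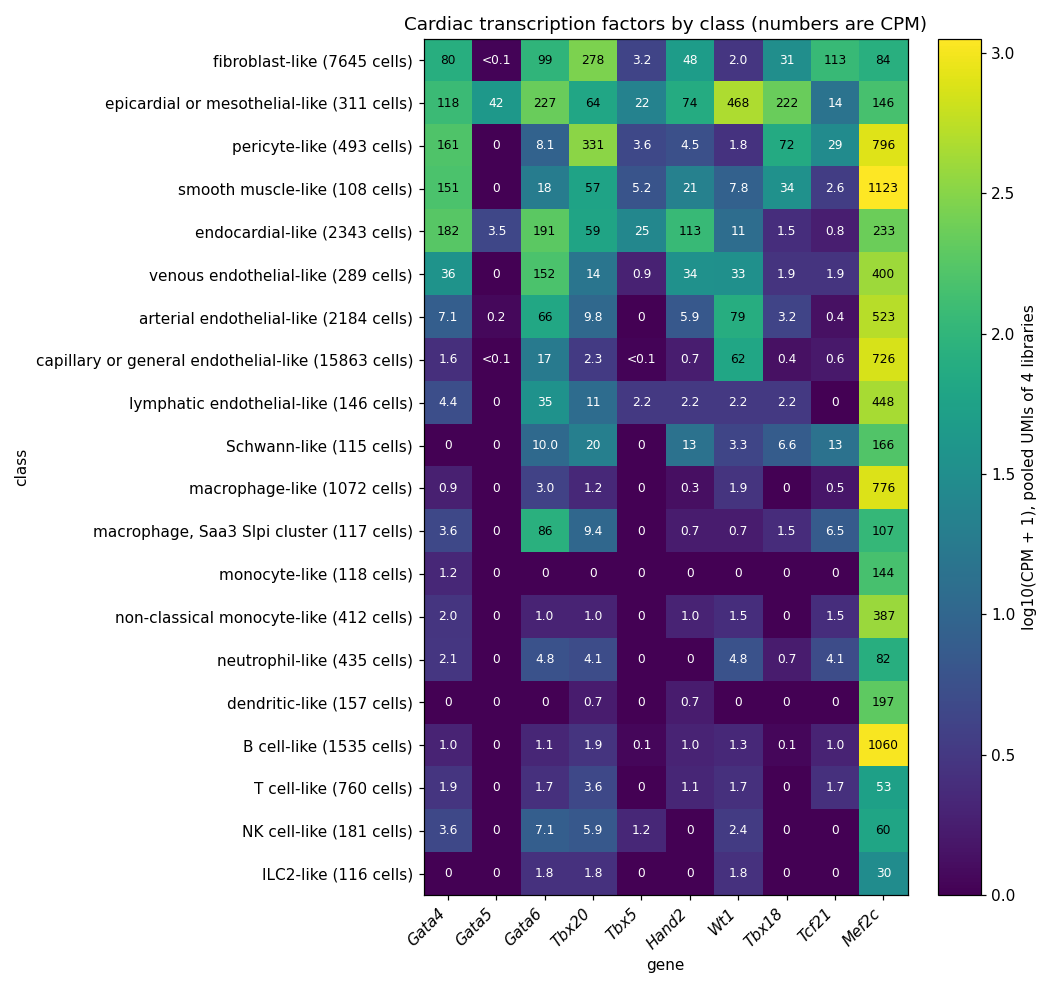
Level of each factor (columns) in the 20 classes (rows, with cell numbers), pooled over 4 libraries; colour is log10(CPM + 1) and the printed numbers are CPM. All columns but Mef2c are dark in most immune rows, while the Mef2c column reaches 1060 CPM in B cell-like cells.

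Against capillary-like or general endothelial cells, the most numerous class with 15863 cells, most factors were higher in the other heart-wall classes. A factor was counted when its level, with 10 CPM added on both sides, differed 2-fold, among genes at 20 CPM or more in either class. In fibroblast-like cells 6 of the 8 factors that could be compared were higher (Gata4, Gata6, Tbx20, Hand2, Tbx18 and Tcf21), beside 15.2% of all genes, and 2 were lower (Wt1 and Mef2c), beside 14.8%. Gata5 and Tbx5 were too low in both classes. In epicardial-like cells 8 of 9 were higher, beside 16.0% of all genes, and 1 was lower (Mef2c), beside 14.6%. In endocardial-like cells 5 of 7 were higher, beside 9.64%, and 2 were lower (Wt1 and Mef2c), beside 9.74%. In pericyte-like cells 4 of 6 were higher, beside 14.3%, and 1 was lower (Wt1), beside 12.1%. Genes that passed the floor only through the class where they are high had to differ, so these counts describe the factors and are no evidence about them as a group. The 4 comparisons share the capillary-like cells. Between epicardial-like and fibroblast-like cells all 10 could be compared. There 5 were higher in the epicardium (Gata5, Gata6, Tbx5, Wt1 and Tbx18), beside 12.1% of genes, and 2 were lower (Tbx20 and Tcf21), beside 9.82%. The median log2 difference was 0.93 over the 10 factors and -0.03 over all genes compared.

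Gata4, which pairs with the co-factor Zfpm2 in heart growth, marked both the inner lining and the vessel wall. Endocardial-like cells held 182 CPM (interval 174 to 191), with 166, 198, 199 and 181 CPM in libraries 1 to 4. Pericyte-like cells held 161 CPM (138 to 186), with 150.0 to 166.5 across libraries, and smooth muscle-like cells 151 CPM (115 to 195), with 146, 537, 112 and 104 CPM in libraries 1 to 4. The 537 CPM of library 2 came from 9 cells and was above the endocardial-like cells of that library. Endocardial-like cells did not stand above either of these: the ratio to pericyte-like cells was 1.13 (0.972 to 1.33). Epicardial-like cells held 118 CPM and fibroblast-like cells 80.4 CPM, the latter with 77.0 to 83.3 across libraries. Epicardial-like cells exceeded fibroblast-like cells 1.46-fold (1.28 to 1.66), in 4 of 4 libraries. Among endothelial classes the venous-like cells, at 36.0 CPM, lay above the arterial-like (7.13) and capillary-like (1.55) cells. A Gata4 UMI was seen in 43.0% of endocardial-like cells (median depth 3873 UMIs) and in 0.521% of B cell-like cells (median depth 4015 UMIs), an immune class used here as the reference for free RNA.

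Gata5, a GATA factor of the early endocardium and of epithelia, was led by the epicardium. Epicardial-like cells held 41.9 CPM (33.7 to 51.6), with 31.4, 32.9, 35.7 and 60.2 CPM in libraries 1 to 4. That was 12.1-fold (8.08 to 18.4) above endocardial-like cells, which held 3.47 CPM. Of the 132 Gata5 UMIs in named or unnamed cells, 67.4% came from the 311 epicardial-like cells and 35 from endocardial-like cells, most of these from the valve type described further on. All 10 immune classes, the pericyte-like and the smooth muscle-like cells were at 0. In the largest of these, the B cell-like cells, 3 UMIs, the floor used here, would give 0.380 CPM.

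Gata6, the third cardiac GATA factor, was high in the epicardium, the endocardium and the veins. Epicardial-like cells held 227 CPM (207 to 248), with 234, 265, 185 and 195 CPM in libraries 1 to 4. Endocardial-like cells followed at 191 CPM and were the higher of the pair in library 3, at 212 CPM. Pooled, the epicardium exceeded the endocardium 1.19-fold (1.07 to 1.31). Endothelial classes were graded: 152 CPM in venous-like, 66.0 in arterial-like, 35.3 in lymphatic-like and 17.1 in capillary-like cells. The 7 endocardial markers summed to 3414 CPM in venous-like and 684 CPM in arterial-like cells. They summed to 7075 CPM in endocardial-like and 31.3 CPM in capillary-like cells. Their part in the venous and arterial levels of Gata6, Gata4 and Hand2 was not tested. In mural cells the order of the GATA factors turned over, with Gata6 at 8.08 CPM in pericyte-like cells, where Gata4 stood at 161 CPM.

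One macrophage cluster held Gata6 at a heart-wall level. It was kept apart because Saa3, Slpi, Cxcl13, Serpinb2 and Prg4 led it, and Gata6 is known as the identity factor of macrophages of the serous cavities. Its 117 cells came from library 2 (81 cells), library 4 (34) and library 3 (2), with none in library 1. Gata6 stood at 85.6 CPM (70.9 to 103), with 79.7 CPM in library 2 and 102 CPM in library 4, against 2.96 CPM in the other macrophage-like cells, a ratio of 29.0 (17.3 to 51.4). A Gata6 UMI was found in 49.6% of its cells at a median depth of 11595 UMIs, and after thinning to 1000 UMIs per cell in 9.57%, against 0.190% of other macrophage-like cells. Gata4 stood at 3.63 CPM, Gata5 and Tbx5 at 0 and Wt1 at 0.726 CPM in the same cells. The 7 epicardial markers summed to 0.726 CPM there with 6 of 7 at 0. The 8 fibroblast markers summed to 1287 CPM, against 343.5 in the other macrophage-like cells, and their part in the Gata6 level was not tested. Mef2c moved the other way, at 107 CPM against 776 CPM, a ratio of 0.138 (0.116 to 0.162).

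Tbx20, a T-box repressor and activator needed in the growing heart, was the factor shared by pericytes and fibroblasts. Pericyte-like cells held 331 CPM (298 to 367), with 347, 412.5, 356 and 230.0 CPM in libraries 1 to 4. Fibroblast-like cells held 278.5 CPM (274 to 283), with 290, 328, 219 and 219 CPM. Library 4 was low in both classes, and pericyte-like cells were the higher class in every library, with a pooled ratio of 1.19 (1.07 to 1.32). The next classes dropped to 63.6 CPM (epicardial-like), 58.9 (endocardial-like) and 57.3 (smooth muscle-like), which did not differ beyond counting error. The 8 fibroblast markers summed to 7293 CPM in epicardial-like and 43450 CPM in fibroblast-like cells, and their part in the epicardial Tbx20 was not tested. Pericyte-like cells exceeded smooth muscle-like cells 5.78-fold (3.76 to 9.34), in 4 of 4 libraries, although 2 of the smooth muscle groups held only 9 and 11 cells. The smooth muscle-like class also carried pericyte markers, summing to 7822 CPM against 18010 CPM in pericyte-like cells. How far this moves its levels was not tested.

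Tbx5, the forelimb and chamber factor mutated in Holt-Oram syndrome, was highest, among whole classes, in the linings of the heart. Endocardial-like cells held 24.9 CPM (21.9 to 28.2), with 23.5, 24.5, 21.2 and 27.4 CPM in libraries 1 to 4. Epicardial-like cells held 21.7 CPM (15.9 to 28.9), with 25.8, 31.5, 11.9 and 11.2 CPM, so the leading class changed between libraries. The ratio of the classes was 1.15 (0.837 to 1.61). All other classes of at least 50 cells were at or under 5.21 CPM, the fibroblast-like cells at 3.18 CPM as a whole, although 2 of their sub-clusters were higher, as given below.

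Tbx18, known from the epicardium and mural cells, followed that distribution. Epicardial-like cells held 222 CPM (203 to 243), with 194, 197, 339.5 and 241 CPM in libraries 1 to 4. Pericyte-like cells held 71.9 CPM (57.0 to 89.4), with 84.9, 43.8, 35.0 and 87.2 CPM. Every library put the epicardium above the pericytes, and the pooled ratio was 3.09 (2.44 to 3.97). Smooth muscle-like (33.9 CPM) and fibroblast-like (31.5 CPM) cells were not separable, and endocardial-like cells were at 1.49 CPM. Both linings held Gata4, Gata6, Tbx5 and Hand2, while Tbx18 was 149-fold (89.6 to 269) higher on the epicardial side.

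Hand2, a bHLH factor of the outflow tract, endocardium and limb, was led by the inner lining. Endocardial-like cells held 113 CPM (106.5 to 120), with 121, 121, 87.4 and 113 CPM in libraries 1 to 4. Epicardial-like cells held 74.4 CPM, with 88.5, 55.8, 35.7 and 91.0 CPM, and fibroblast-like cells 47.5 CPM, with 44.5 to 51.9. The endocardium stood above the epicardium in each library, 1.52-fold when pooled (1.28 to 1.80). Pericyte-like cells were at 4.49 CPM, so in this class Hand2, like Gata6, was low while Gata4 and Tbx20 were high. This did not hold in the valve-type cells described below, with Hand2 at 239 CPM.

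Tcf21, a bHLH factor required for the formation of cardiac fibroblasts, was bound to that class. Fibroblast-like cells gave 92.3% of its UMIs and held 113 CPM (110 to 115.5), with 98.5, 146, 131 and 89.6 CPM in libraries 1 to 4. Libraries 2 and 3 were the higher pair. Pericyte-like cells held 28.7 CPM (19.7 to 40.6), with 23.8 to 37.5 across libraries, and fibroblast-like cells exceeded them 3.92-fold (2.77 to 5.73). The 8 fibroblast markers summed to 3554 CPM in pericyte-like cells and to 43450 CPM in fibroblast-like cells, and their part in the pericyte value was not tested. Epicardial-like cells held 13.7 CPM, with the 8 fibroblast markers at 7293 CPM, whose part was also not tested. A Tcf21 UMI was seen in 45.1% of fibroblast-like cells (median depth 6467 UMIs) and 0.456% of B cell-like cells, and at 1000 UMIs per cell in 10.0% and 0.134%.

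Wt1, the Wilms tumour factor, had a main source in the epicardium and a lower one in endothelium. Epicardial-like cells held 468 CPM (439 to 498), with 479.5, 561, 292 and 409 CPM in libraries 1 to 4. Arterial-like cells held 79.0 CPM, with 78.9, 82.5, 68.5 and 86.0 CPM, and capillary-like cells 62.4 CPM, with 69.8, 65.2, 59.6 and 57.4 CPM. The epicardium exceeded arterial-like cells 5.92-fold (5.29 to 6.63), and arterial-like exceeded capillary-like cells 1.27-fold (1.14 to 1.40). Venous-like cells held 33.2 CPM, endocardial-like cells 11.2 CPM and lymphatic-like cells 2.21 CPM. The 7 epicardial markers, which summed to 6454 CPM in epicardial-like cells, summed to 3.52 CPM in capillary-like and 2.50 CPM in arterial-like cells. Fibroblast-like cells, at 2.02 CPM, were at the level of immune classes, which reached 4.81 CPM.

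Mef2c, a MADS-box factor of all muscle lineages that also acts in B cells, macrophages and endothelium, was present in every class, at 29.8 CPM or more. Smooth muscle-like cells held 1123 CPM (1020 to 1234), with 1086, 1313, 1176 and 1178 CPM in libraries 1 to 4. B cell-like cells held 1060 CPM (1038 to 1083), with 1230, 1045, 1384 and 875 CPM. The 2 classes were not separable, at a ratio of 1.06 (0.959 to 1.17), and the higher one changed with several settings of the analysis. Pericyte-like (796 CPM), macrophage-like (776 CPM) and capillary-like (726 CPM) cells followed, and T cell-like cells, at 53.2 CPM, were 19.9-fold (17.3 to 23.1) below B cell-like cells. Mef2c fell along the endothelium from capillary-like (726 CPM) over arterial-like (523), lymphatic-like (448) and venous-like (400) to endocardial-like cells (233 CPM). That order was nearly the reverse of the order of Gata6 in the same classes. Fibroblast-like cells were among the low classes, at 83.9 CPM. The 8 cardiomyocyte markers summed to 472 CPM in smooth muscle-like, 312 in macrophage-like, 36.8 in pericyte-like and 18.7 in B cell-like cells. Their part in the Mef2c levels was not tested.

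**Figure D2:**
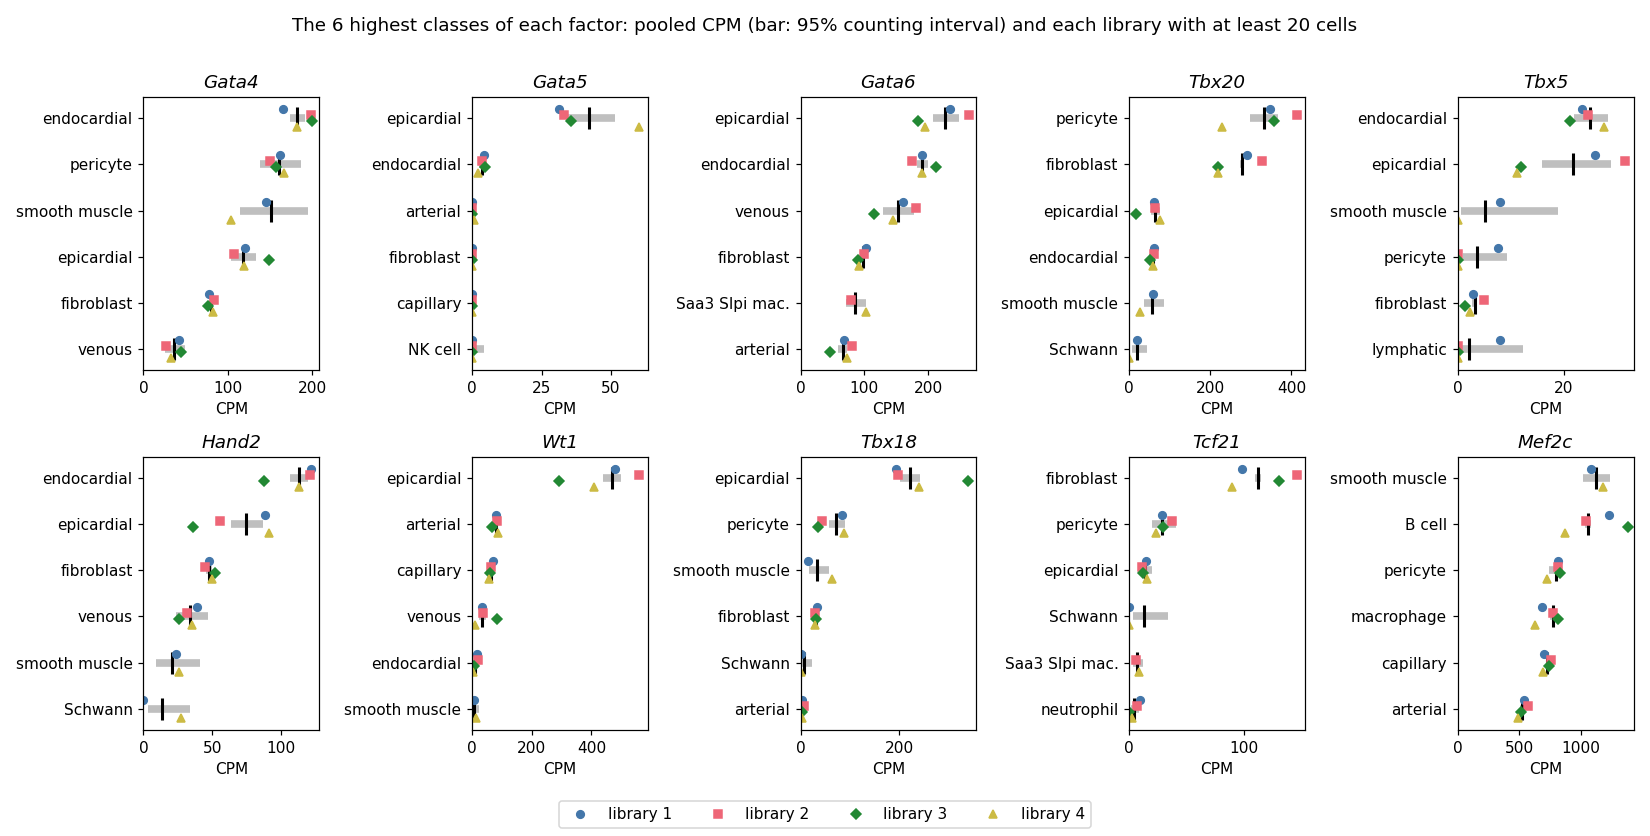
CPM of each factor in its 6 highest classes: black ticks are pooled values, grey bars 95% counting intervals, coloured symbols the libraries with at least 20 cells of the class. The library symbols of Wt1, Tbx18 and Tcf21 keep the leading class above the next in every library, while those of Tbx5 and Mef2c cross between the first and second class.

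Fibroblast-like cells were divided into 9 sub-clusters of 92 to 1711 cells. Levels differed between them, and 3 are described at length. In 1625 cells led by Cxcl14 and G0s2, Gata4 (0.7 times the rest), Gata6 (0.752), Tbx20 (0.714), Tbx18 (0.601) and Mef2c (0.804) were lower in 4 of 4 libraries. Hand2 (1.05) and Tcf21 (0.942) were not separable there. Tcf21 was lowest, at 81.1 CPM, in 1253 cells led by Kcnip1 and Ifitm1, and lower than the rest in 4 of 4 libraries. A sub-cluster of 461 cells led by Igfbp3, Fgl2, Sfrp2 and Smad6 held Tbx20 at 1132 CPM (1093 to 1173), with 1275, 1110, 739 and 883 CPM in libraries 1 to 4. All other fibroblast-like sub-clusters together held 229 CPM, with 197 to 262 across libraries, a ratio of 4.94 (4.75 to 5.14). Gata4 (157 against 76.0 CPM, 2.07-fold), Tcf21 (186 against 108 CPM, 1.72-fold), Gata6 (142 against 96.1 CPM, 1.48-fold) and Hand2 (72.1 against 46.1 CPM, 1.57-fold) were higher there in 4 of 4 libraries. So was Tbx5, at 12.6 against 2.64 CPM, 4.76-fold (3.18 to 6.97). The 7 endocardial markers summed to 3135 CPM in these cells, against 820 to 2501 CPM in the other sub-clusters, with the median marker at 4.67 CPM. Of them 1 was at 0. The 7 pericyte markers summed to 126 CPM, against 5.52 to 128 CPM. Their part in these levels was not tested. Tbx18 was not separable (1.19-fold, 0.962 to 1.45). The depth of this sub-cluster was not higher, with a median of 5757 UMIs against 6467 for all fibroblast-like cells, and a Tbx20 UMI remained in 56.5% of its cells thinned to 1000 UMIs, against 20.6% of all fibroblast-like cells.

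The lowest Tbx20 among the sub-clusters lay in 395 cells led by Opcml, Nkain2 and Igfbp5. They held 57.8 CPM (49.0 to 67.7), with 52.3, 75.2, 35.2 and 46.4 CPM, 0.199 times the other sub-clusters (0.168 to 0.233) and lower in 4 of 4 libraries. The same cells held the most Wt1 and Tbx5 of all fibroblast-like sub-clusters. Wt1 stood at 28.5 CPM (22.4 to 35.7), with 25.6, 40.6, 12.8 and 19.0 CPM, against 0.580 CPM in the rest. Tbx5 stood at 20.5 CPM against 2.24 CPM, a ratio of 9.18 (6.49 to 12.8). Of the 103 Wt1 UMIs in fibroblast-like cells, 75 came from these cells. Their 7 epicardial markers summed to 12.2 CPM, against at most 2.98 CPM in the other sub-clusters and 6454 CPM in epicardial-like cells. Their part in the Wt1 level was not tested. Tcf21, at 117 CPM, did not differ from the rest (1.04-fold, 0.923 to 1.17).

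The Mfap4 Osr1 type (1065 cells) was set apart by Tbx18 and Gata6. Tbx18 stood at 52.9 CPM, with 54.6, 58.7, 53.5 and 40.4 CPM, against 28.2 CPM in the rest, 1.88-fold (1.67 to 2.11). Gata6 stood at 158 CPM against 89.3 CPM, 1.77-fold (1.65 to 1.89), and Mef2c at 121 against 78.1 CPM, 1.55-fold (1.43 to 1.67). All 3 were higher in 4 of 4 libraries. The 6 smooth muscle markers summed to 127 CPM there, against 24.7 to 83.4 CPM in the other sub-clusters, and the 7 endocardial markers to 2501 CPM, and their part was not tested. Tbx20 was lower there, at 161 CPM, and also in the adventitial Pi16 Cd248 type (820 cells), at 147 CPM, each in 4 of 4 libraries. The Pi16 Cd248 type held Tcf21 at 128 CPM, 1.17-fold (1.08 to 1.25) above the rest, and no Wt1 UMI. The interferon type (223 cells) held Tbx20 at 303 CPM and Tcf21 at 107 CPM, within the range of the large sub-clusters. Its Tbx18, at 14.96 CPM against 32.0 CPM in the rest, was the lowest of the 9 sub-clusters, 0.468-fold (0.292 to 0.711) and lower in 4 of 4 libraries.

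A cluster of 218 cells outside the fibroblast-like class held high levels of several factors. Its leading genes were Erbb4, Wif1, Dkk3 and Postn. It took no class name: its best 2 lists, smooth muscle and fibroblast, had mean marker log2 folds of 0.74 and 0.73 where 1 was needed. The 8 fibroblast markers summed to 33760 CPM there, against 43450 CPM in fibroblast-like cells. The 6 smooth muscle markers summed to 400 CPM against 61.1 CPM and the 7 pericyte markers to 276 CPM against 54.2 CPM, and their part in the differences below was not tested. Of its cells 149 came from library 1, 25 from library 2, 4 from library 3 and 40 from library 4. Tbx20 stood at 1191 CPM (1134 to 1252), with 1227, 1353 and 979 CPM in libraries 1, 2 and 4, against 278.5 CPM in fibroblast-like cells, 4.28-fold (4.06 to 4.51). Gata4 was 2.61-fold higher (2.30 to 2.95), at 210.0 CPM, in 4 of 4 libraries. Gata6 (228 CPM, 2.31-fold) and Hand2 (115.5 CPM, 2.43-fold) were higher in 3 of 4, the exception being the 4 cells of library 3. Tcf21 turned the other way, at 30.7 CPM against 113 CPM, a ratio of 0.273 (0.196 to 0.371), and was lower in 4 of 4 libraries. High Tbx20 therefore went with high Tcf21 in the Igfbp3 Fgl2 fibroblast-like cells and with low Tcf21 in these cells. Zfpm2, the GATA co-factor, was also low here, at 213 CPM against 564 CPM.

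**Figure D3:**
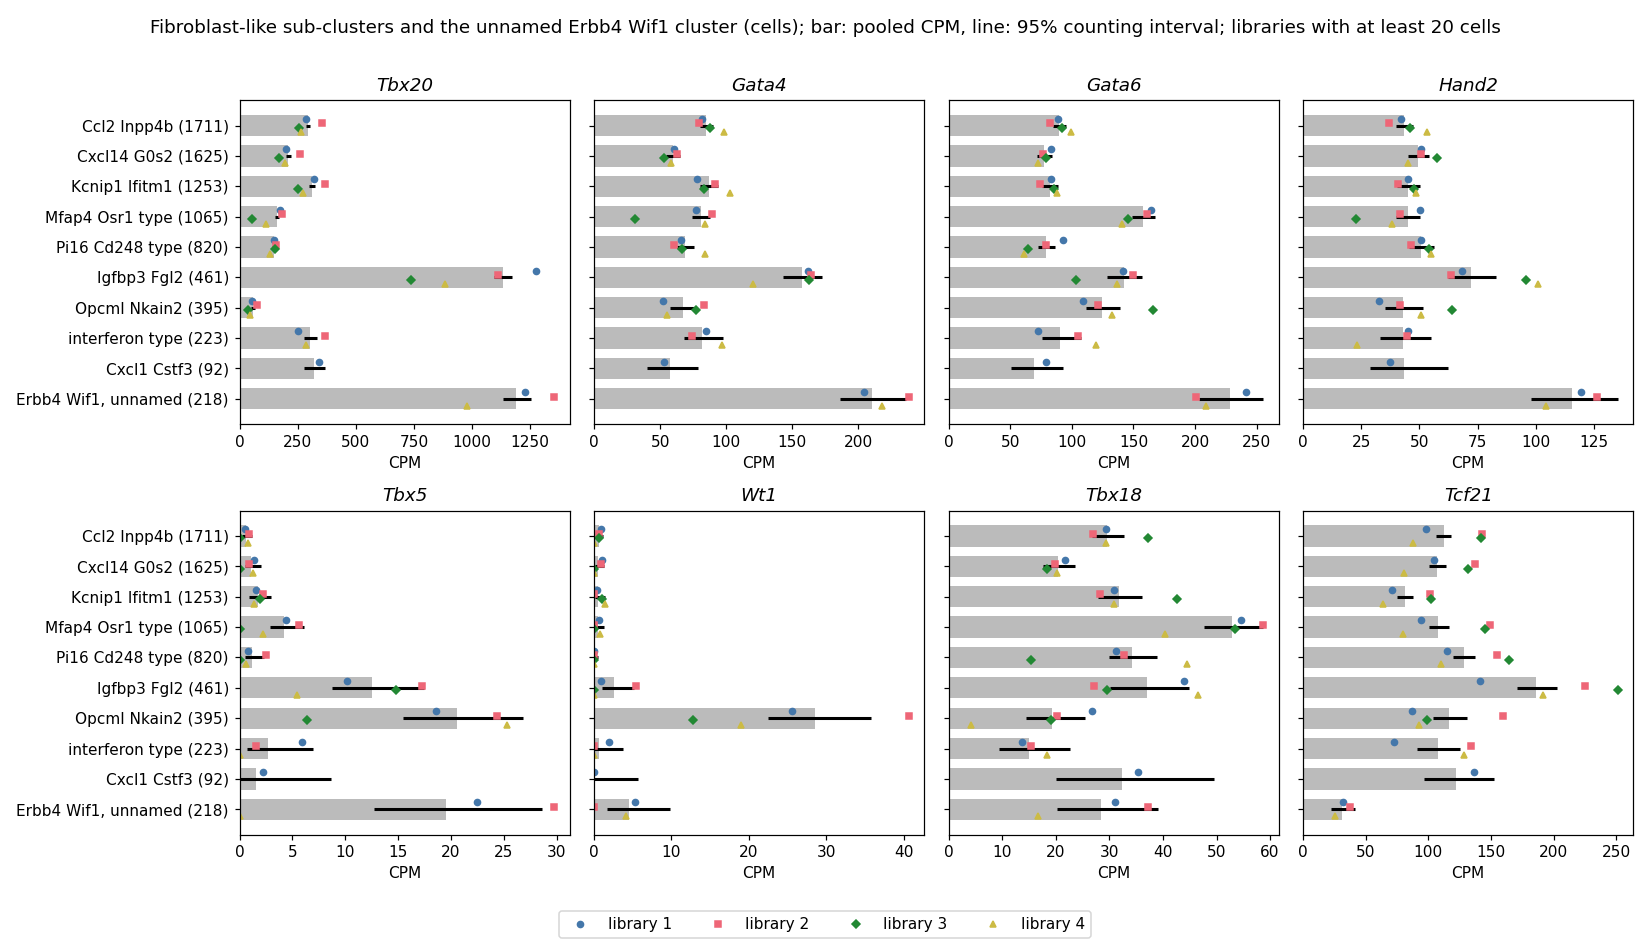
CPM of 8 factors in the 9 fibroblast-like sub-clusters and the unnamed Erbb4 Wif1 cluster (cell numbers in brackets): bars are pooled values, black lines 95% counting intervals, symbols the libraries with at least 20 cells. The Igfbp3 Fgl2 cells (1132 CPM) and the Erbb4 Wif1 cells (1191 CPM) stand apart for Tbx20 but lie at opposite ends for Tcf21 (186 and 30.7 CPM).

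Endocardial-like cells fell into 5 sub-clusters of 231 to 960 cells, of which 1 took the name of the valve type from its markers, with Hapln1 among its leading genes. These 231 valve-type cells held Tbx20 at 328 CPM (296.5 to 362), with 308.5, 265, 420 and 367 CPM in libraries 1 to 4. The other endocardial-like cells held 22.1 CPM, with 19.5 to 26.9, so the groups lay far apart in every library, at a ratio of 14.8 (12.5 to 17.7). Gata4 stood at 305 CPM against 165.5 CPM (1.84-fold, 1.64 to 2.07), Hand2 at 239 against 95.7 CPM (2.50-fold, 2.18 to 2.86) and Tbx5 at 42.0 against 22.6 CPM (1.86-fold, 1.34 to 2.55). All were higher in 4 of 4 libraries. Of the 35 endocardial Gata5 UMIs, 31 came from the valve-type cells, where Gata5 stood at 25.6 CPM (17.4 to 36.3). Mef2c was lower, at 72.5 CPM against 255 CPM, a ratio of 0.285 (0.227 to 0.352), in 4 of 4 libraries. Gata6 was lower in 3 of 4 (157 against 195 CPM, 0.805-fold, 0.690 to 0.936), and Wt1 stood at 1.65 CPM on 2 UMIs against 12.5 CPM.

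Fibroblast markers moved with this sub-cluster: the list of 8 summed to 3522 CPM in valve-type cells and to 1280 to 2851 CPM in the other endocardial-like sub-clusters. Tcf21 stood at 0.824 CPM in valve-type cells. The part of the fibroblast markers in the valve-type levels was not tested. Among the remaining sub-clusters Gata6 was highest, at 283 CPM, in 252 cells that also held more haemoglobin RNA and Nrg1. Wt1 was highest, at 20.2 CPM, in 960 cells led by A2m and Lyve1. In that sub-cluster libraries 1 and 2 held 32.5 and 39.6 CPM of Wt1 and libraries 3 and 4 held 5.84 and 8.66 CPM. The capillary markers summed to 2032 CPM in the same cells, against 563 to 2362 CPM in the others, and their part was not tested.

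A further 152 cells, led by Lsamp, Enpp2 and Prox1, missed the endocardial name, with a mean marker log2 fold of 0.92 where 1 was needed, and held a like set of factors without Mef2c. Hand2 stood at 223 CPM (188 to 262), with 224, 229, 224 and 217 CPM in libraries 1 to 4. It was 1.97-fold (1.65 to 2.35) above the endocardial-like cells. Tbx20 was 2.34-fold higher (1.86 to 2.93), at 138 CPM, in 4 of 4 libraries. The 8 fibroblast markers summed to 3507 CPM here against 2093 CPM in endocardial-like cells, and the 7 endocardial markers to 2885 CPM against 7075 CPM. Their part in these levels was not tested. Mef2c stood at 9.10 CPM on 6 UMIs against 233 CPM, a ratio of 0.0391 (0.0143 to 0.0852), below every immune class.

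**Figure D4:**
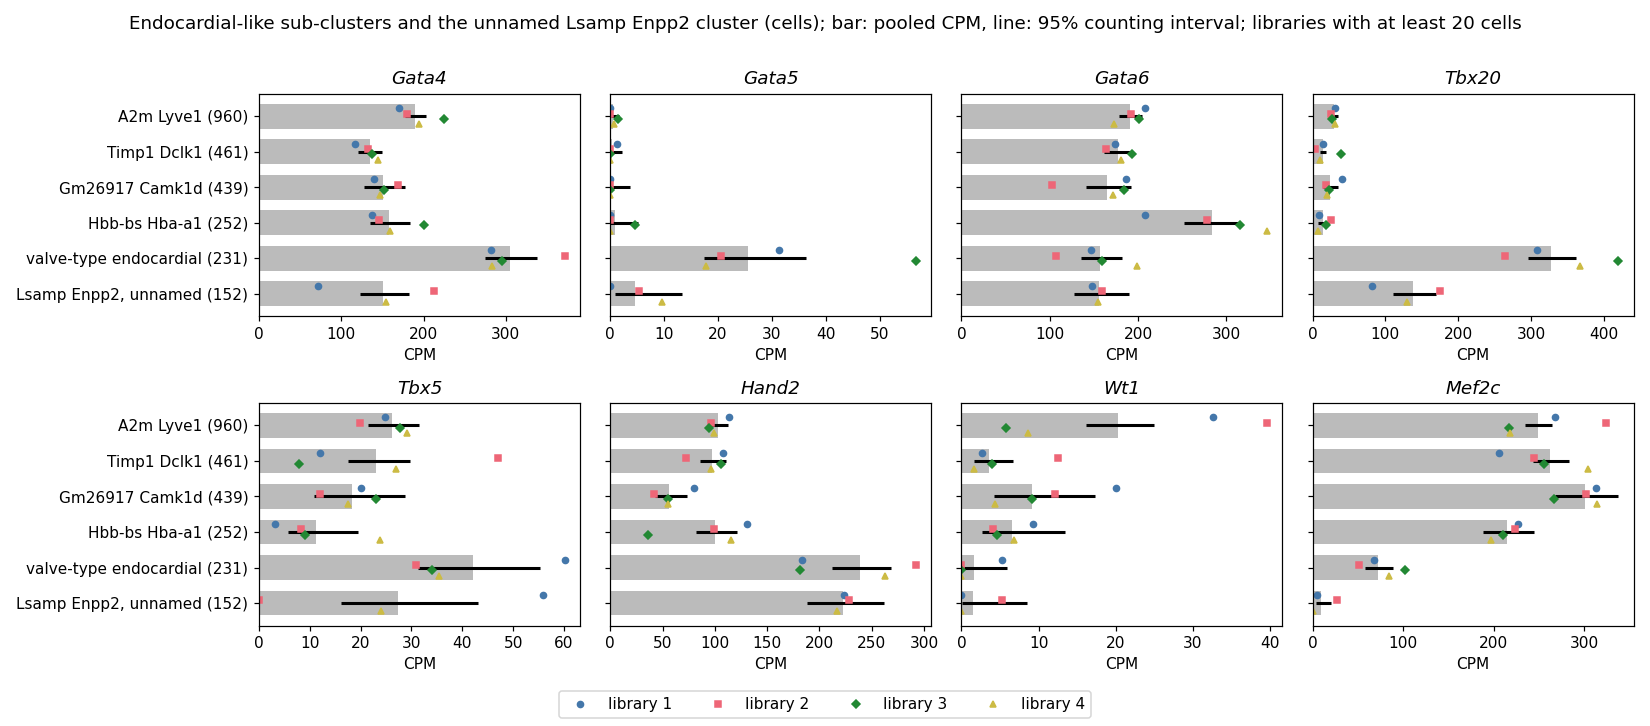
CPM of 8 factors in the 5 endocardial-like sub-clusters and the unnamed Lsamp Enpp2 cluster (cell numbers in brackets): bars are pooled values, black lines 95% counting intervals, symbols the libraries with at least 20 cells. The valve-type bar is the highest for Gata4 (305 CPM), Gata5 (25.6 CPM), Tbx20 (328 CPM) and Hand2 (239 CPM), and the bottom 2 rows hold the lowest Mef2c (72.5 and 9.10 CPM).

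An unnamed endothelial cluster of 1610 cells, led by Kirrel3 and Samd5, lay between classes. Its best list, venous, had a mean marker log2 fold of 0.9 and the next, capillary, 0.75, where 1 was needed. Gata6 stood at 64.1 CPM, with 55.9, 85.4, 52.0 and 60.6 CPM, 3.76-fold (3.26 to 4.32) above capillary-like cells and higher in 4 of 4 libraries. Hand2, at 7.17 CPM, was 9.57-fold (5.60 to 16.5) above the capillary-like cells, which held only 0.749 CPM. Wt1, at 55.9 CPM, was not separable from the 62.4 CPM of capillary-like cells (0.895-fold, 0.785 to 1.02). Zfpm2 was 6.04-fold higher (5.58 to 6.54), at 233 CPM. Arterial-like cells held Gata6 at 66.0 CPM, Hand2 at 5.89 CPM, Wt1 at 79.0 CPM and Zfpm2 at 75.8 CPM. The 7 endocardial markers summed to 131 CPM in this cluster and to 31.3 CPM in capillary-like cells, and their part was not tested.

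Several factors were read in the same cells. Without Mef2c, and with every cell thinned to 1000 UMIs, at least 1 of the 9 other factors was seen in 66.9% of epicardial-like, 44.9% of pericyte-like, 44.0% of fibroblast-like and 41.0% of endocardial-like cells. The share was 7.76% in capillary-like and 0.803% in B cell-like cells. At least 2 of the 9 were seen in 26.8% of epicardial-like and 10.1% of fibroblast-like cells. Wt1 and Tbx18 together were seen in 53.7% of epicardial-like cells at full depth (48.0 to 59.3, exact Clopper-Pearson 95% interval), beside 50.6%, the product of the single shares. Gata4 and Tbx20 together were seen in 25.6% of fibroblast-like cells, beside a product of 23.0%. UMIs of all 3 of Gata4, Mef2c and Tbx5 were present in 28 of 7645 fibroblast-like cells, 0.366% (0.244 to 0.529), beside a product of 0.240%, and in 0 of 1535 B cell-like cells. At 1000 UMIs none of 7592 fibroblast-like cells held all 3, which allows up to 0.0486% and shows only that the share is not detectable at that depth. Endocardial-like cells held all 3 in 2.99% (2.34 to 3.76) and epicardial-like cells in 5.14% (2.97 to 8.22) at full depth. Since depth differs between cells and classes, no link between factors was read from these shares.

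Likeness to other genes was read across the 20 classes as Pearson's r of log2(CPM + 10), over 8163 genes outside the factor lists, as a description. The classes share libraries and depth, and one high class can set the value. Tbx18 was most like Gpc3 (r = 0.989), a glypican, Ror1 (0.946) and C1s1 (0.939). Tcf21 was most like the matrix genes Smoc2 (0.957), Adamtsl2 (0.952) and Col6a2 (0.951). Tbx20 was most like Rgma (0.949), Mdk (0.947) and C1qtnf2 (0.941), all highest in pericyte-like cells. Gata4 was most like Ninl (0.928), Pde3a (0.919) and Nckap5 (0.905). Gata6 was most like 1010001N08Rik (0.930) and the prostacyclin synthase Ptgis (0.920), and Hand2 like 5033428I22Rik (0.935) and Enpp2 (0.919). Gata5 was most like Elavl2 (0.995), 6820408C15Rik (0.989) and 2010001K21Rik (0.986), and Wt1 like Rhpn2 (0.961), Lratd2 (0.927) and AU021092 (0.891). Tbx5 was most like Bex4 (0.946), the desmosomal cadherin Dsg2 (0.925) and Pdzrn4 (0.902). Mef2c had the weakest best match: Pkig (0.831), Phc2 (0.782) and Myo1c (0.766).

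Neighbouring transcripts of 2 members showed the same leading class as the member itself. Hand2os1 starts 124 bases from Hand2 on the opposite strand (RefSeq) and stood at 327 CPM in endocardial-like cells, with 297, 346, 339 and 336 CPM. Its balance with Hand2 differed between classes. Venous-like cells held 78.6 CPM of Hand2os1 beside 34.1 CPM of Hand2, while fibroblast-like cells held 19.3 CPM beside 47.5 CPM. In the 3 endocardial groups above it was 419 CPM in valve-type cells, 314 CPM in the other endocardial-like cells and 497.5 CPM in the Lsamp Enpp2 cells. By their RefSeq starts the 2 genes run apart. In GENCODE M21, by contrast, Hand2os1 (chr8:57281117-57324233, minus strand) overlaps Hand2 (chr8:57320983-57324633, plus strand). Since the sources used here do not say whether counting used strand, their reads may not be fully told apart. Wt1os starts 19 bases from Wt1 on the opposite strand (GENCODE M21). It stood at 196 CPM in epicardial-like cells, with 249, 205, 53.6 and 180.5 CPM, at 14.8 CPM in arterial-like cells and at 13.0 CPM in capillary-like cells. In the Opcml Nkain2 fibroblast-like cells Wt1os stood at 14.4 CPM against 0.248 CPM in the other sub-clusters, beside the higher Wt1 of those cells.

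**Figure D5:**
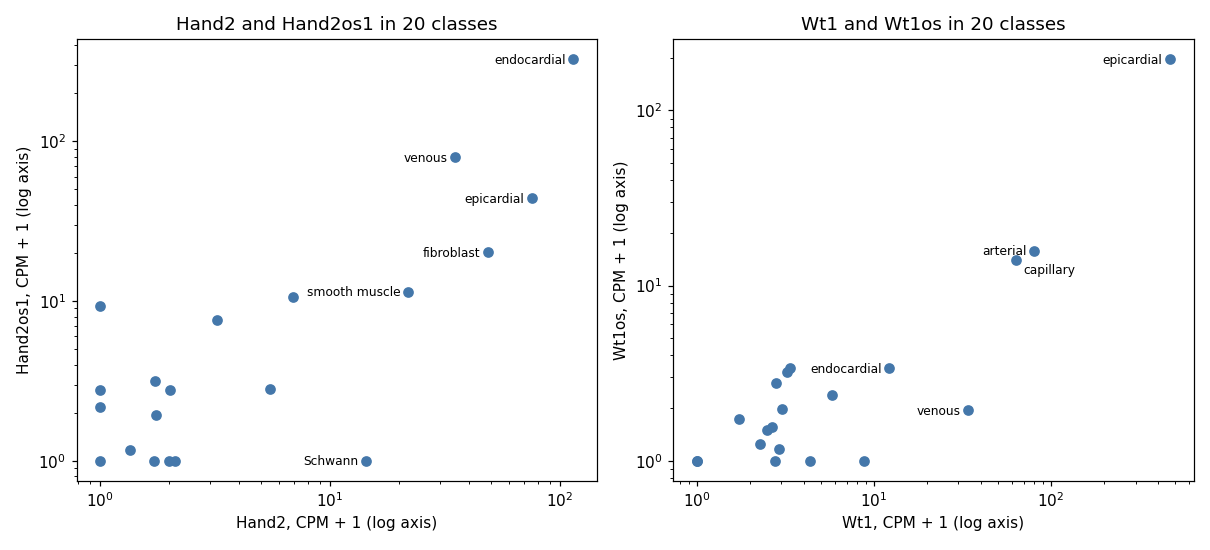
Level of each neighbouring transcript (vertical) against its member (horizontal) in 20 classes, both as CPM + 1 on log axes; each point is 1 class, named where either value is at least 10 CPM. Endocardial-like cells lead for Hand2 and Hand2os1 (113 and 327 CPM) and epicardial-like cells for Wt1 and Wt1os (468 and 196 CPM).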

How the data were processed

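The deposited matrix holds whole-number UMI counts per gene and barcode, made by the authors with Cell Ranger 7.1.0 on mm10, per the submitters' processing notes; the sources used here do not say whether intronic reads were counted. The 10 factors, the lists and the markers were chosen with earlier results of these data known. Cells needed 500 UMIs, 250 genes and at most 15% mitochondrial UMIs (821 barcodes failed), and 1316 doublets were removed with Scrublet in scanpy 1.11.5. Its automatic threshold marked 0% of library 3, which took the median threshold of the others. Counts scaled to 10000 per cell were clustered on 2000 variable genes and 30 principal components (15 neighbours, Leiden resolution 1), leaving out the listed factors and mitochondrial, ribosomal, haemoglobin, sex-linked and early-response genes. A cluster was named "-like" from 24 marker lists with at least 3 markers and, rules added after the clusters were seen, a mean log2 fold of 1. Also added then, clusters led by cell-cycle genes stayed unnamed, clusters with 2 classes of markers were divided once more or set aside as mixed, and the Saa3 Slpi macrophage cluster was kept apart.

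Levels are pooled CPM with exact Poisson intervals, shares have exact binomial intervals and ratios exact conditional intervals, computed with scipy 1.17.1. Cells are not replicates, and the planned tests of stroke against control, with edgeR and DESeq2, were not run because no barcode could be tied to a sample. All 10 factors are described. The 3 genes most like each factor and the 4 highest genes of each related list are named by rule, except a few that are not reported here. The 2-fold count was tested on simulated data. Coordinates are GRCm38 (RefSeq promoters, GENCODE M21 genes). Alternatives covered the cell filter, doublets, resolution, cell weights, thinning and libraries.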

Additional observations from a re-analysis of the deposited data

How the results depend on the processing

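The count of factors highest in a mesenchymal class was 7 and ranged from 6 to 8 over all alternatives. Mef2c left the count where B cell-like cells overtook smooth muscle-like cells, and without library 1, where fewer than 50 smooth muscle-like cells remain. Its log2 ratio of smooth muscle-like to B cell-like cells turned from 0.08 to -0.22 at Leiden resolution 0.5, -0.13 with doublets kept, -0.08 in cells thinned to 1000 UMIs, -0.03 under the stricter cell filter (1000 UMIs, 10% mitochondrial) and -0.02 with every cell weighted equally; the cause was not tested. With equal weights Gata4 led in a mesenchymal class. Thinning, which leaves fewer UMIs, moved the log2 ratio of the leading to the next class for Hand2 (0.13), Tbx5 (1.27), Tcf21 (2.79) and Wt1 (2.31), and took the share of fibroblast-like cells with Gata4, Mef2c and Tbx5 to 0%. Leaving out 1 library at a time gave log2 ratios of 0.14 to 0.25 for Gata4, 2.92 to 3.89 for Gata5, 0.10 to 0.35 for Gata6, 0.42 to 0.78 for Hand2, 0.02 to 0.12 for Mef2c, 1.43 to 1.95 for Tbx18, 0.20 to 0.29 for Tbx20, 1.87 to 2.07 for Tcf21, 2.43 to 2.71 for Wt1 and 0.263% to 0.456% for the triple share. For Tbx5 it gave -0.22 to 0.57, the negative value without library 4. Keeping the mixed sub-clusters, an alternative chosen after seeing the data, changed no leading class. Values resting on under 10 UMIs in a library, above all in smooth muscle-like cells, are limited by depth. No paired analysis was possible because the barcodes carry no link to the labelled replicates.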

Other observations

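Factors related to the 10 were read in the same classes, by lists that were chosen with earlier results of these data known. How many of all genes are highest in each class was not counted, so the counts below describe the lists only. Of 5 GATA factors and co-factors outside the 10, 4 reached 20 CPM in some class: Zfpm2, the co-factor of Gata4, was highest in lymphatic-like (892 CPM) and pericyte-like cells (788.5 CPM), Gata3 in ILC2-like cells (642 CPM), Gata2 in arterial-like cells (118 CPM) and Zfpm1 in NK cell-like cells (75.8 CPM). Of 11 other T-box factors 6 reached 20 CPM. Tbx2 (313 CPM) and Tbx3 (138 CPM) were highest in smooth muscle-like cells, where Tbx20 stood at 57.3 CPM, Tbx1 in lymphatic-like cells (132 CPM) and Tbx21, the factor of type 1 lymphocytes, in NK cell-like cells (219 CPM). Of 7 MEF2, SRF and myocardin genes 5 reached it, 3 of them highest in immune classes. Non-classical monocyte-like cells led for Mef2a (662 CPM) and Mrtfa (300.3 CPM), Mrtfb led in arterial-like cells (291 CPM) and Myocd, the smooth muscle co-activator, in smooth muscle-like cells (188 CPM), followed by epicardial-like cells (26.4 CPM).

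Of 13 other bHLH factors 10 reached 20 CPM, 5 highest in mesenchymal and 5 in endothelial classes: Tcf4 (2522 CPM), Tcf12 (545 CPM) and Tcf15 (429 CPM) led in capillary-like cells and Heyl, a Notch target, in pericyte-like cells (238 CPM). Hand1 did not reach 20 CPM in any class. Of 17 homeobox genes 9 reached it, with Meis2 at 644 CPM in both epicardial-like and endocardial-like cells, Meis1 at 289 CPM in epicardial-like cells and Meox2 at 234 CPM in capillary-like cells. Nkx2-5 and Isl1, factors of the heart tube and its later fields, did not reach it. Of 19 mesenchymal, valve and venous factors 17 reached it, 10 of them highest in a mesenchymal class: Ebf1 led in pericyte-like cells (2777 CPM), Zeb1 in fibroblast-like cells (874.5 CPM), Nfia in endocardial-like cells (1381 CPM) and Zeb2 in Schwann-like cells (1981 CPM). Of 10 antisense or neighbouring transcripts sought by symbol, 3 were among the features, and Gata5os reached 1.41 CPM in epicardial-like cells on few UMIs.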
